A study of Mus musculus with 23 samples.

Results

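The constitutive proteasome genes were followed in mouse primary bone-marrow-derived macrophages (BMDMs) that responded to lipopolysaccharide (LPS), a surface molecule of Gram-negative bacteria that macrophages sense through a Toll-like receptor. Members were chosen by name: of the 6397 genes with deposited values, 45 had a symbol of the form Psma, Psmb, Psmc, Psmd, Psme, Psmf or Psmg followed by a number. The 3 inducible catalytic subunits Psmb8, Psmb9 and Psmb10 and the inducible activator subunits Psme1 and Psme2 were left out, which left 40 genes. Of these, 14 encode the 20S core particle (7 Psma, 7 Psmb) and 20 carry the names of the 19S cap (6 Psmc, 14 Psmd). The other 6 encode activators, an inhibitor and assembly chaperones (Psme3, Psme4, Psmf1, Psmg1, Psmg2 and Psmg3).

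BMDMs of C57BL/6 mice were grown in medium supplemented with L929 conditioned medium, which supplies the growth factor that drives macrophage differentiation. Control cells (0 h) and cells given 100 ng/ml LPS for 1, 2, 4 or 6 h were harvested in 2 replicates (A and B, so that 0 h A is replicate A of the control). Cells of each culture were split between RNA-seq of rRNA-depleted total RNA and Ribo-seq, in which ribosome-protected fragments (RPFs) of mRNA are sequenced. Each assay thus had 10 libraries, with values in RPKM, which scales reads by length and by the mapped total of the library. In Ribo-seq this length was that of the coding sequence, as judged by the steps between low values. The length used in RNA-seq was not resolved. The translation efficiency (TE) of a gene is its RPF RPKM over its RNA RPKM in the same culture. A separate CLIP-seq experiment, which maps RNA bound by a protein, used BMDMs of Zfp36-V5 knock-in mice after 4 h of 100 ng/ml LPS. How many mice stand behind the replicates of the time course is not given in the sources used here, so the p-values measure the spread between these cultures.

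The proteasome is the main protease of the cytosol and nucleus, and it degrades proteins that carry ubiquitin chains. Its 20S core is a barrel of stacked rings, in which Psma subunits form the outer rings that gate the entry and Psmb subunits form the inner rings that hold the proteolytic sites. The 19S cap binds the ubiquitin chain, removes it, and unfolds the substrate with a ring of Psmc ATPases. In macrophages exposed to inflammatory signals, the catalytic subunits Psmb5, Psmb6 and Psmb7 can be replaced by Psmb8, Psmb9 and Psmb10 to give the immunoproteasome, which favours peptides for antigen presentation.

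All 10 macrophage markers examined (such as Adgre1, Csf1r and Lyz2) were in the table, and their summed level lay between 8365 and 14013 RNA RPKM over the 10 libraries, led by 1 gene with a mean of 7485 RPKM. Of these markers 4 rose and 4 fell in RNA at 6 h, with log2 changes from -1.45 to 2.96, where 26.1% of all tested genes rose and 54.9% fell. None of the neutrophil, lymphocyte, dendritic cell or erythroid markers was listed, and of 5 fibroblast markers Col1a1 alone was listed, at a mean of 0.845 RNA RPKM. The read totals behind the RPKM scale of the Ribo-seq libraries ran from 550000 (6 h A) to 3470000, as recovered from the steps between low RPKM values. They need not equal all sequenced reads of a library, and the depth of RNA-seq libraries could not be resolved. The level of a typical gene was lower at later times, with a median log2 change of RPKM + 1 at 6 h of -0.41 over the 4805 genes tested in RNA and -0.66 over the 5277 genes tested in RPFs. Centring each library on its median gene added 0.22 to every log2 change in RNA at 6 h and 0.52 in RPFs, and changes are given on the deposited scale unless stated. The Ribo-seq libraries of 1 h B, which had the lowest core levels relative to the cap, and of 6 h A, the shallowest, stood apart, and the counts at 6 h are given with and without these cultures. In bulk samples fewer cells of a type and less RNA per cell cannot be told apart.

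By the median gene, core was more abundant than cap in every library. RPKM is scaled by length, but the length used in RNA-seq was not resolved. Single genes overlapped, and the cap gene Psmd8 ranked 6 of the 40 in RNA by its mean over the 10 libraries. The median of the 14 core genes lay between 94.7 and 125 RNA RPKM, against 43.2 to 53.9 for the 20 cap genes and 16.4 to 21.9 for all genes in the table, and the log2 ratio of the medians lay between 1.04 and 1.35 over the 10 RNA-seq libraries. In Ribo-seq it lay between 0.43 and 1.26, and the lowest value came from 1 h B alone. Averaged over the 10 RNA-seq libraries, Psma6 led all 40 genes at 223 RPKM, ahead of Psmb6 at 184 and Psmb4 at 164 RPKM. The lowest were the assembly chaperone Psmg1 at 9.75 RPKM and the inhibitor Psmf1 at 11.2 RPKM. Psma6 also led in RPFs with a mean of 452 RPKM, followed by Psma2 at 329.6 and Psmb2 at 295 RPKM.

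**Figure D1:**
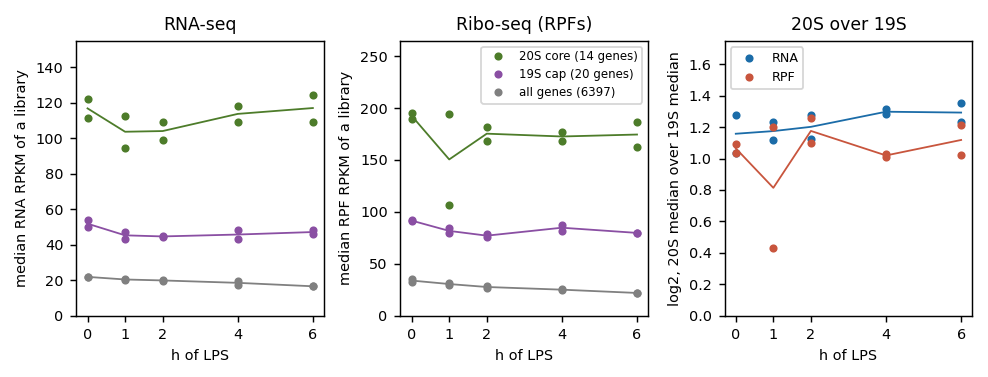
Median RNA RPKM (left) and RPF RPKM (middle) of the 14 core genes, the 20 cap genes and all 6397 genes in each library against hours of LPS, and log2 of the core median over the cap median (right), with points for libraries and lines through the means of the 2 replicates. Core lies above cap in all 20 libraries, and the single low point of the right panel is the Ribo-seq library of 1 h B at 0.43.

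Of the 40 genes, 39 passed the filter on low values in RNA (a mean of at least 10 RPKM; Psmg1 did not) and all 40 passed in RPFs. At 6 h of LPS against 0 h, 10 members rose and 9 fell in RNA at an adjusted p under 0.05 (limma), where 26.1% of all tested genes rose and 54.9% fell. The median log2 change of the members was -0.01, against -0.41 for all tested genes. In RPFs, 2 members rose and 4 fell at 6 h, where 12.8% of tested genes rose and 36% fell, with a median change of -0.29 for the members and -0.66 for all genes. After centring each library on its median, the split was 18 higher and 6 lower in RNA, where 32.9% of all tested genes were higher and 46.2% lower, and 7 higher and 2 lower in RPFs, where 19% were higher and 17.9% lower, and no called member changed sign. Without the cultures of 1 h B and 6 h A, 8 members rose and 10 fell in RNA, and 2 rose and 5 fell in RPFs.

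The responses built up over time. In RNA, no member rose and 4 fell at 1 h (7.72% of all tested genes rose and 9.12% fell), 2 rose and 7 fell at 2 h (15.7% and 37.7%), and 7 rose and 8 fell at 4 h (24.3% and 51.7%), or 11 and 6 after centring (27.8% and 47.2%). In RPFs, no member passed at 1 h (2.94% of tested genes rose and 0.322% fell), where 0 were higher and 6 lower at an unadjusted p under 0.05, which 5.7% of tested genes passed as higher and 9.17% as lower. At 2 h only Psma4 passed, lower in RPFs (5.65% rose and 4.85% fell), and at 4 h 2 rose and 1 fell (11.7% and 23.5%). Many of these counts rested on single libraries. More members were lower in RNA at 1 h and 2 h with a replicate block, as given in the last section. In RNA, the 4 lower at 1 h became 1 if 0 h A or 1 h B was left out, and 2 if 0 h B or any library of 2 h or 6 h was. The 7 lower at 2 h became 4 with 0 h B or either 2 h replicate omitted, and the 8 lower at 4 h became 5 with 4 h A omitted. In RPFs, 7 members were lower at 1 h once 1 h A was removed. At 4 h the count of 2 higher was 1 when any 0 h or 4 h library was removed. The count of 1 lower at 4 h was 0 when either 0 h library or 4 h A was removed, 2 when either 6 h library was, and 3 when either 1 h library was. At 6 h the 4 lower became 1 with 0 h B omitted, 2 with 0 h A omitted and 8 with either 1 h replicate omitted, and the 2 higher became 4 with either 1 h replicate omitted.

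**Figure D2:**
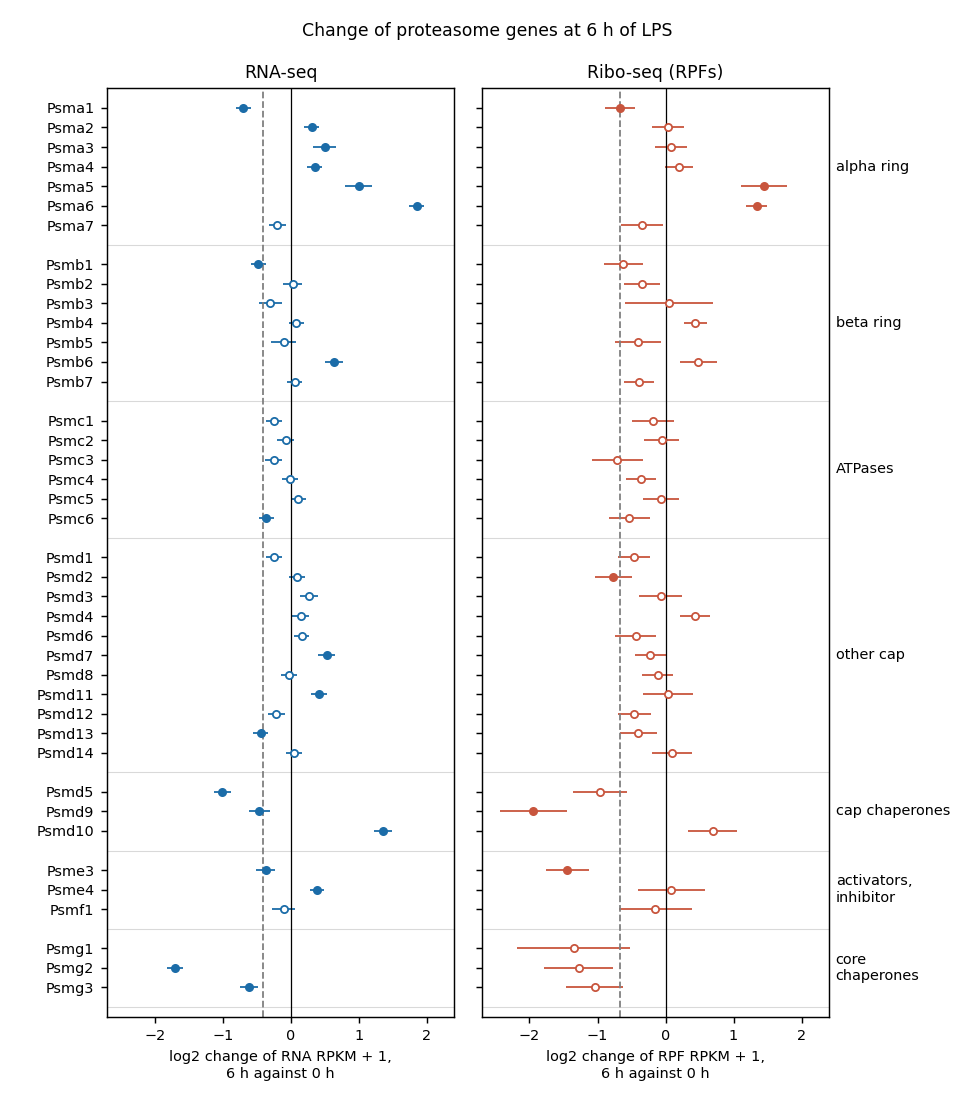
Log2 change of RNA RPKM + 1 (left) and RPF RPKM + 1 (right) at 6 h of LPS against 0 h for each member, with bars for 1 SE, filled points for an adjusted p under 0.05 and a dashed line at the median of all tested genes (-0.41 in RNA, -0.66 in RPFs). Psma5, Psma6 and Psmd10 lie farthest to the right in RNA and Psmd5 and Psmg2 farthest to the left, while the ATPases lie between -0.36 and 0.11 in RNA.

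To show the DNA upstream of genes whose RNA moved differently, the promoters were read for 4 short patterns in the stretch from 250 bases before to 50 bases after each annotated start (RefSeq, GRCm38.p6), searched on both strands, and 33 of the 40 members were matched. The patterns were TGACNNNGC, the antioxidant response element, which is also bound by Nfe2l1, a factor that drives proteasome genes when proteasome activity is low, the CCAAT box of NF-Y, the ETS pattern CCGGAAG, and the interferon-stimulated response element. CCGGAAG occurred in 14 of 33 members, in 1 of 11 core genes (Psma6) and in 9 of 17 cap genes, against 24.0% of the genes in the table and 8.86% of all promoters. CCAAT occurred in 12 of 33, in 6 of 11 core and 5 of 17 cap genes, against 42.4% and 37.4%. TGACNNNGC occurred in 6 of 33 (18.1% and 12.4%), among them Psmb5 and Psmb6, and the interferon-stimulated response element in 3 of 33 (4.19% and 3.44%). Such a match is a description and shows no binding. Windows are shown for genes that moved in opposite directions or whose change differed while they share a pattern, which stands in capitals.
The ETS pattern in Psma6, which rose, in Psmd11, which rose, and in Psmd13, which fell, was found in these windows.
Psma6, chr12:55398813-55398839, plus strand: cgccggtgctCCGGAAGcagtagccat
Psmd11, chr11:80428594-80428620, minus strand: aaacacacacCCGGAAGacccgccctc
Psmd13, chr7:140882378-140882404, plus strand: gcccgcggtgCCGGAAGtgagcgagca
The CCAAT box lay in Psma1, which fell, and in Psmd10, which rose.
Psma1, chr7:114276200-114276224, minus strand: gagcttcctgCCAATcccacgttct
Psmd10, chrX:140956721-140956745, plus strand: gttccggcgaCCAATcaaagtacta
The Nfe2l1 element lay in Psmb6, which rose in RNA, and in Psmb5, which did not pass.
Psmb6, chr11:70525338-70525366, plus strand: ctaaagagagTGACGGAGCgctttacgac
Psmb5, chr14:54618024-54618052, minus strand: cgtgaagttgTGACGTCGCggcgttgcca
The printed ETS match of Psma6 lies at the downstream of its annotated starts, and the printed matches of Psmd11 and Psmd10 lie on the strand opposite to the gene. The printed genes were picked because their changes differed, so they do not show how often a pattern goes with a direction of change. That was not tested.

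The alpha ring, formed by Psma subunits, did not move as a unit. Of its 7 genes, 5 rose in RNA at 6 h (Psma2, Psma3, Psma4, Psma5 and Psma6), Psma1 fell, and Psma7 did not pass the test at -0.20 ± 0.13 (log2 change ± SE, here and for later values of this form). Of all tested genes 26.1% rose and 54.9% fell. Psma6 (chr12:55384222-55418459, GRCm38), an outer-ring subunit and the 1 core gene of 11 with the ETS pattern, gave 117 and 113 (0 h), 112 and 105 (1 h), 163 and 173 (2 h), 289 and 326 (4 h) and 408 and 427 (6 h) RPKM in RNA. Both replicates of 2, 4 and 6 h lay above both at 0 h, and each of these time points lay above the one before. At 6 h its RNA was 3.63 times the 0 h mean, a log2 change of 1.85 ± 0.11 (SE, limma adjusted p = 3.6e-10). This was the largest rise among the members in RNA.

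RPFs on Psma6 followed, with 337 and 275 (0 h), 216 and 222 (1 h), 329 and 360.3 (2 h), 585 and 650.1 (4 h) and 791 and 755 (6 h) RPKM. The 1 h libraries were the lowest and the 4 h and 6 h libraries lay above all others. The log2 change of its RPFs at 6 h was 1.34 ± 0.16, adjusted p = 0.0001, which is less than that of its RNA, and its TE was 1.94 and 1.77 at 6 h against 2.88 and 2.44 at 0 h, without overlap. The TE change of Psma6 was -0.51 ± 0.20 (log2, SE) and did not pass the adjustment (adjusted p = 0.39).

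Psma5 (chr3:108256926-108279952, GRCm38), another outer-ring subunit, started as the lowest core gene in RNA. It gave 59.3 and 45.04 (0 h), 45.8 and 29.7 (1 h), 46.4 and 39.99 (2 h), 96.2 and 75.9 (4 h) and 122 and 89.03 (6 h) RPKM in RNA, so that 1 h and 2 h overlapped with 0 h and every 4 h and 6 h library lay above. In RPFs it gave 58.5 and 54.6 (0 h), 50.3 and 98.2 (1 h), 39.5 and 56.04 (2 h), 115 and 136 (4 h) and 183 and 133 (6 h) RPKM, with 1 h B far above its partner. Psma5 rose at 6 h in RNA (1.00 ± 0.20, adjusted p = 0.00024) and in RPFs (1.45 ± 0.34, adjusted p = 0.006), and in both assays it had already passed at 4 h (RNA 0.71, RPFs 1.13), in RNA not without 4 h A (adjusted p = 0.075). Psma6 and Psma5 were the 2 members that rose in RPFs at 4 h and at 6 h. The RPF call of Psma5 at 4 h was lost without any one of the libraries of 0 h and 4 h (adjusted p = 0.083 to 0.14), and at 6 h the calls of both genes held in both assays under every alternative setting tried.

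Psma1 (chr7:114264550-114276116, GRCm38) went the other way. Its RNA gave 134 and 135 (0 h), 116 and 105 (1 h), 104 and 99.9 (2 h), 90.3 and 100.2 (4 h) and 85.2 and 79.7 (6 h) RPKM, so that both 6 h libraries lay below every earlier library. It fell by 0.70 on the log2 scale at 6 h (SE 0.11, adjusted p = 2.6e-05), and by 0.67 in RPFs (SE 0.22, adjusted p = 0.029). In RPFs it had 216 and 163 RPKM at 6 h against 296 and 304 RPKM at 0 h. The RPF call was lost without 0 h A (adjusted p = 0.094), 0 h B (0.11) or 6 h B (0.19), with a prior variance that does not follow the mean level (0.067), and after centring, where the change was -0.16.

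The other alpha genes moved less. At 6 h Psma4 had 100.0 and 104 RNA RPKM against 77.2 and 82.9 at 0 h, and Psma3 had 193 and 146 against 127 and 111, a difference of 0.50 ± 0.17. Psma2 had 192 and 198 RNA RPKM at 6 h against 158 and 157 at 0 h. These are small rises (0.31 to 0.50) and their calls rested on single libraries. Psma2 lost its call without any one of the 4 libraries of 0 h and 6 h (adjusted p = 0.056 to 0.1), Psma3 without 0 h B (0.084) or 6 h A (0.18), and Psma4 without 0 h A (0.058) or 6 h B (0.065). None of the 3 passed in RPFs at 6 h, where their changes lay between 0.04 and 0.20. Psma4 was, however, lower in RPFs at 2 h, with 67.7 and 58.6 RPKM against 102 and 115 at 0 h (-0.77 ± 0.21, adjusted p = 0.045), a result singled out after its value was seen. That call was lost without any one library of 0, 2, 4 or 6 h (adjusted p = 0.063 to 0.19) and after centring (0.18).

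**Figure D3:**
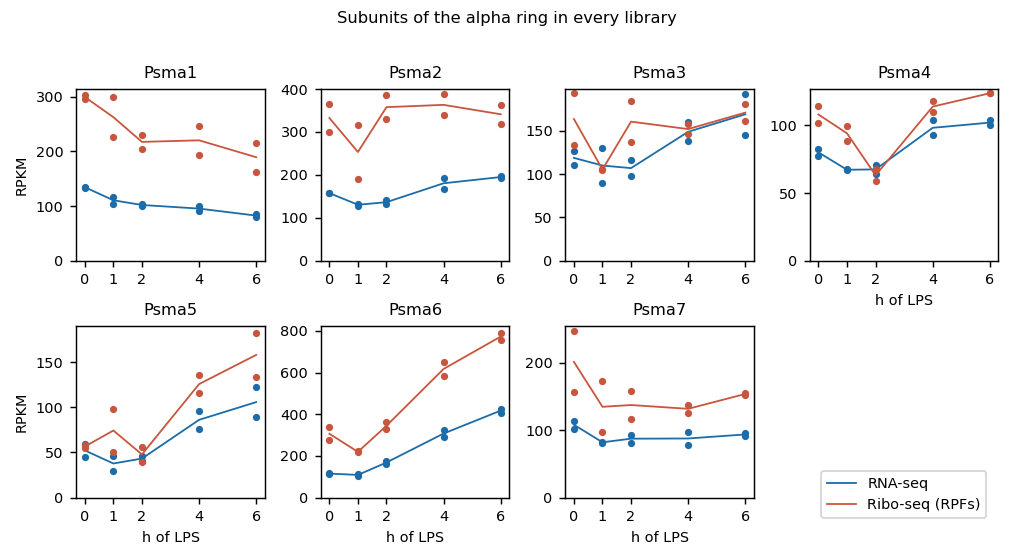
RPKM of the 7 Psma genes in RNA-seq (blue) and Ribo-seq (red) against hours of LPS, with 1 point per library and lines through the means. Psma6 reaches 408 and 427 RNA RPKM at 6 h while Psma1 falls to 85.2 and 79.7.

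In the beta ring, Psmb6 rose and Psmb1 fell in RNA at 6 h, and the other 5 genes did not pass. Among all tested genes 26.1% rose and 54.9% fell. Psmb6 (chr11:70525324-70527858, GRCm38), the caspase-like catalytic subunit, gave 158 and 134 (0 h), 175 and 148 (1 h), 185 and 169.8 (2 h), 206 and 214 (4 h) and 248 and 205 (6 h) RPKM. All libraries from 4 h on lay above both 0 h libraries, with a log2 change at 6 h of 0.63 ± 0.13, adjusted p = 0.00041. Its RPFs were 276 and 247 RPKM at 6 h against 195 and 179 RPKM at 0 h, higher in both replicates but not past the threshold (0.48 ± 0.27, adjusted p = 0.16). Psmb1, a ring subunit without a proteolytic site, had 133 and 126 RNA RPKM at 6 h against 185 and 177 at 0 h, a fall of 0.48 on the log2 scale (SE 0.11, adjusted p = 0.0013).

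The other catalytic subunits showed no call in either assay. Psmb5, the chymotrypsin-like subunit, had 71.8 and 52.4 RNA RPKM at 6 h against 76.7 and 57.1 at 0 h (-0.11 ± 0.19, adjusted p = 0.6), and 41.3 and 56.6 RPF RPKM against 62.7 and 66.3 (-0.41 ± 0.34, adjusted p = 0.33). Psmb7, the trypsin-like subunit, had 114 and 108 RNA RPKM at 6 h against 108 and 105 at 0 h (0.06 ± 0.11, adjusted p = 0.63).

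The inducible counterparts, left out of the members, all rose. In RNA at 6 h the log2 changes were 3.09 for Psmb10, 2.28 for Psmb9, 2.09 for Psme2, 1.57 for Psmb8 and 1.43 for Psme1. All 5 also rose in RPFs. Among all tested genes, 26.1% rose in RNA and 12.8% in RPFs at 6 h. As a ratio within each library, RNA of Psmb8 over Psmb5 was 5.61 and 6.99 at 6 h, against 1.70 and 2.24 at 0 h. That of Psmb10 over Psmb7 was 3.74 and 3.49 at 6 h, against 0.460 and 0.409 at 0 h. Psmb9 over Psmb6 was 0.620 and 0.669 at 6 h, against 0.175 and 0.229 at 0 h, so that by RPKM the constitutive Psmb6 stayed the more abundant mRNA of this pair at every time point. The RPF ratios at 6 h were 15.04 and 10.6 for Psmb8 over Psmb5 and 5.36 and 4.16 for Psmb10 over Psmb7, against 3.28 and 3.89 and against 0.495 and 0.544 at 0 h. For Psmb9 over Psmb6 the RPF ratio was 0.937 and 1.15 at 6 h against 0.176 and 0.656 at 0 h, with 1.096 in 1 h B.

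**Figure D4:**
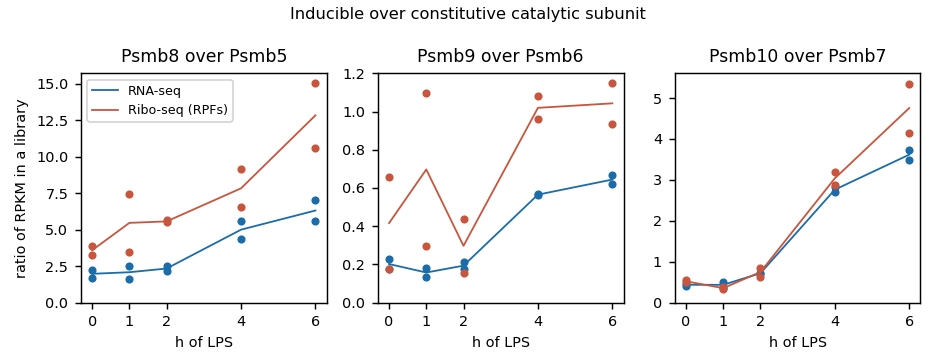
Ratio of the RPKM of each inducible catalytic subunit to that of its constitutive counterpart in RNA-seq (blue) and Ribo-seq (red) against hours of LPS, with 1 point per library and lines through the means. In RNA all 3 ratios lie above their 0 h values from 4 h on, and Psmb9 over Psmb6 stays below 1.

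Among the cap genes, the 6 Psmc ATPases, which form the unfolding ring, moved little in RNA. Their log2 changes in RNA at 6 h ranged from -0.36 to 0.11, and only Psmc6 passed, where 26.1% of all tested genes rose and 54.9% fell. Psmc6 had 48.1 and 46.7 RNA RPKM at 6 h against 62.2 and 60.3 at 0 h, a fall of 0.36 (adjusted p = 0.0063). After centring its change was -0.14 and no longer passed (adjusted p = 0.14). In RPFs all 6 ATPases had negative changes at 6 h, from -0.71 to -0.05, and none passed the test. Psmc1, named here after its values were seen, was lower in RNA at 2 h (-0.32 ± 0.12, adjusted p = 0.031) and 4 h (-0.45 ± 0.12, adjusted p = 0.0025), and at 6 h its change was -0.24 ± 0.12, adjusted p = 0.064. The call at 2 h was lost without any one library of 0 h or 2 h (adjusted p = 0.056 to 0.12), without 1 h B and 6 h A together (0.051) and after centring (0.063), and the call at 4 h held under every alternative.

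The lid, which removes ubiquitin chains, had 2 genes that rose and 1 that fell in RNA at 6 h among 8 genes, where 26.1% of all tested genes rose and 54.9% fell. Psmd7, the partner of the deubiquitinase Psmd14, gave 22.5 and 24.7 (0 h), 21.3 and 21.5 (1 h), 23.3 and 23.3 (2 h), 29.2 and 37.5 (4 h) and 32.98 and 35.9 (6 h) RPKM, with every 4 h and 6 h library above every earlier one (0.53 ± 0.12, adjusted p = 0.001 at 6 h). Its RPFs did not follow, with 90.99 and 80.03 RPKM at 6 h against 96.2 and 104 RPKM at 0 h, lower in both replicates but not past the threshold (-0.23 ± 0.23, adjusted p = 0.42). Psmd11, a lid subunit that holds the lid to the core, had 30.9 and 29.8 RNA RPKM at 6 h against 24.3 and 21.1 at 0 h (0.41 ± 0.12, adjusted p = 0.005), a call lost without 0 h B (adjusted p = 0.058). Psmd13 was the lid gene that fell, with 48.6 and 44.05 RNA RPKM at 6 h against 64.02 and 62.6 at 0 h (-0.44 ± 0.11, adjusted p = 0.002), and it was already lower at 2 h (-0.43). Its change at 1 h (-0.35) passed as well, but not without any one of 0 h A, 0 h B, 1 h B or the libraries of 2 h and 6 h (adjusted p = 0.062 to 0.34). Psmd14 itself did not pass, at 0.05 ± 0.11 in RNA and 0.09 ± 0.29 in RPFs.

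Of the scaffold and ubiquitin-binding subunits Psmd1, Psmd2 and Psmd4, none passed in RNA at 6 h, where their changes lay between -0.25 and 0.14. Among all tested genes 26.1% rose and 54.9% fell. Psmd2, a scaffold that docks shuttle proteins, fell in RPFs, with 52.3 and 50.6 RPKM at 6 h against 83.8 and 93.4 RPKM at 0 h (-0.77 ± 0.27, adjusted p = 0.04). Its RNA was 82.7 and 74.9 RPKM at 6 h against 74.96 and 73.3 RPKM at 0 h. The RPF call of Psmd2 was lost without any one of the 4 libraries of these times (adjusted p = 0.095 without 0 h A, 0.15 without 0 h B, 0.1 without 6 h A and 0.12 without 6 h B). It also did not pass without both 1 h B and 6 h A (0.058) or after centring, where the RPF change was -0.25. Psmd4, a ubiquitin receptor, had RPFs of 111 and 118 RPKM at 6 h, above the 85.04 and 83.7 RPKM of 0 h, with a change that did not pass as deposited (0.43 ± 0.22, adjusted p = 0.13) and did after centring (0.95).

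The 3 chaperones that assemble the cap base changed in different directions. Psmd10 (chrX:140948425-140956711, GRCm38), also called gankyrin, gave 16.05 and 19.3 (0 h), 19.5 and 22.6 (1 h), 26.8 and 31.2 (2 h), 41.4 and 46.4 (4 h) and 44.6 and 48.7 (6 h) RPKM in RNA, with every library from 1 h on above both 0 h libraries and no overlap between neighbouring time points up to 4 h. Its RNA at 6 h was 2.64 times the 0 h mean (1.36 ± 0.13, adjusted p = 8.2e-08). In RPFs Psmd10 had 89.6 and 84.1 RPKM at 6 h against 60.7 and 46.7 RPKM at 0 h, without overlap but not past the threshold (0.69 ± 0.36, adjusted p = 0.13). Psmd5 gave 25.2 and 27.5 (0 h), 20.5 and 18.2 (1 h), 18.2 and 20.8 (2 h), 12.5 and 15.3 (4 h) and 12.7 and 12.4 (6 h) RPKM in RNA, with every later library below both at 0 h, and fell by 1.01 at 6 h (SE 0.12, adjusted p = 1.8e-06).

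Psmd9, the third of these chaperones, had 15.8 and 14.9 RNA RPKM at 6 h against 23.3 and 19.97 at 0 h (-0.46 ± 0.15, adjusted p = 0.01). Its RPFs were 13.7 and 5.296 RPKM at 6 h against 31.6 and 40.9 RPKM at 0 h, the largest fall among the members in RPFs (-1.94 ± 0.49, adjusted p = 0.0086). The 6 h values of Psmd9 in RPFs rest on about 5 reads in replicate A and 9 in replicate B. Its RPF call was lost without 0 h B (adjusted p = 0.059) or 6 h B (0.066), and its RNA call without 0 h A (0.08), without 6 h B (0.053) and after centring (-0.24).

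The chaperones of the core, which help Psma subunits form a ring, were among the lowest members. Both that could be tested in RNA fell at 6 h, where 26.1% of all tested genes rose and 54.9% fell. Psmg2 gave 20.8 and 19.9 (0 h), 16.95 and 16.1 (1 h), 12.5 and 13.98 (2 h), 8.55 and 8.54 (4 h) and 6.23 and 4.96 (6 h) RPKM in RNA, a descent without overlap between any neighbouring time points, and fell by 1.70 at 6 h (SE 0.12, adjusted p = 2.7e-09). This was the largest fall of a member in RNA, to 0.275 of the 0 h mean. Its RPFs were 11.5 and 23.7 RPKM at 6 h against 37.4 and 46.4 RPKM at 0 h, a difference that missed the threshold (-1.28 ± 0.51, adjusted p = 0.061). Psmg3 had 10.6 and 10.4 RNA RPKM at 6 h against 15.1 and 18.2 at 0 h (-0.62 ± 0.13, adjusted p = 0.00034), and it had already fallen at 1 h, with 8.98 and 10.7 RPKM (-0.70 ± 0.13, adjusted p = 0.0009). It was also the member that fell in RPFs at 4 h (-1.37 ± 0.42, adjusted p = 0.028), a result singled out after its value was seen and lost without 0 h A (0.14), 0 h B (0.083) or 4 h A (0.22) and after centring (0.079). Psmg1, the partner of Psmg2, was too low in RNA to be tested and had 6.195 and 4.86 RPKM at 6 h against 14.4 and 13.6 RPKM at 0 h, without overlap. In RPFs Psmg1 was at 4.21 and 9.03 RPKM at 6 h against 13.5 and 22.4 RPKM at 0 h, and its 6 h A value rests on about 2 reads. Pomp, the maturation factor of the core outside the name rule, did not pass in RNA (0.03 ± 0.13, adjusted p = 0.84) or in RPFs (-0.53 ± 0.23, adjusted p = 0.079).

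Of the alternative activators, which open the core without ubiquitin recognition, Psme4 rose and Psme3 fell. Psme4 had 29.4 and 30.3 RNA RPKM at 6 h against 22.2 and 23.1 at 0 h (0.38 ± 0.11, adjusted p = 0.004), while its RPFs were 13.6 and 21.6 RPKM against 14.8 and 17.4 RPKM and overlapped. Psme3, a nuclear activator, gave 107 and 83.9 (0 h), 92.4 and 135 (1 h), 75.05 and 86.7 (2 h), 61.7 and 80.6 (4 h) and 26.5 and 43.96 (6 h) RPKM in RPFs, with both 6 h libraries below all others, and fell by 1.44 at 6 h (SE 0.32, adjusted p = 0.0045). About 11 reads stand behind the value of 6 h A, and the call held under all 19 alternatives. Its RNA was 18.7 and 23.8 RPKM at 6 h against 27.2 and 28.1 RPKM at 0 h (-0.37 ± 0.14, adjusted p = 0.021), a call lost without 0 h B (adjusted p = 0.068), without 6 h A (0.26) and after centring (-0.15). The inhibitor Psmf1, whose RNA was lower at 2 h (-0.43 ± 0.17, adjusted p = 0.045), did not pass at 6 h, at -0.11 ± 0.17 in RNA and -0.15 ± 0.54 in RPFs. The call of Psmf1 at 2 h, singled out after its value was seen, was lost without any one library of 0, 2 or 4 h (adjusted p = 0.057 to 0.16), with library weights (0.052) and after centring (0.099).

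**Figure D5:**
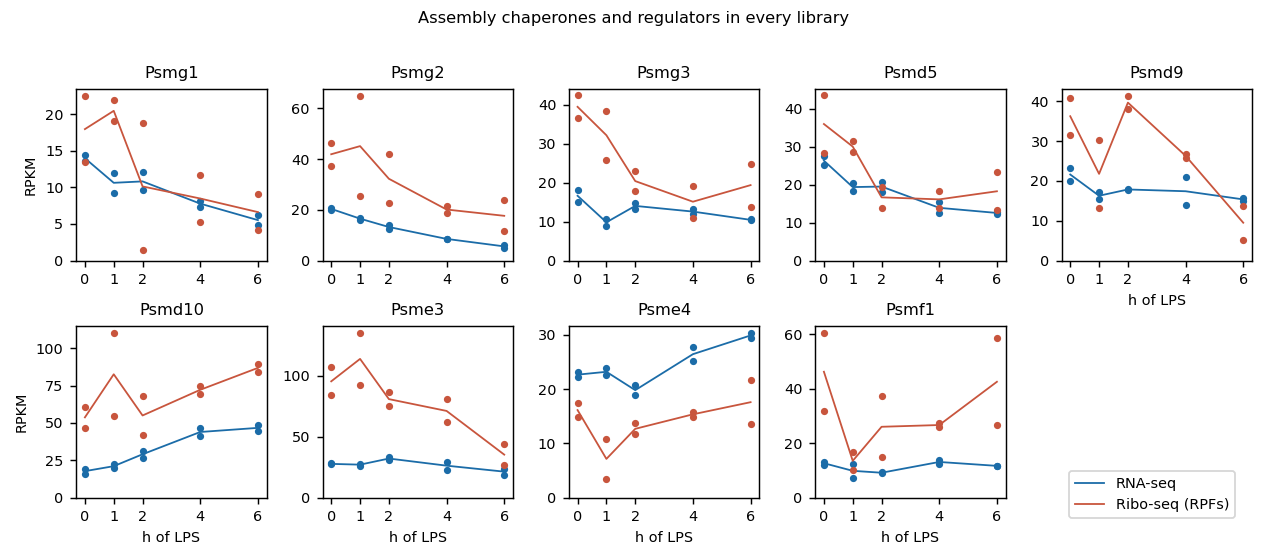
RPKM of the assembly chaperones (Psmg1, Psmg2, Psmg3, Psmd5, Psmd9 and Psmd10) and of the activators and the inhibitor (Psme3, Psme4 and Psmf1) in RNA-seq (blue) and Ribo-seq (red) against hours of LPS, with 1 point per library and lines through the means. In RNA Psmd10 climbs to 44.6 and 48.7 RPKM at 6 h, while Psmg2 descends to 6.23 and 4.96 RPKM.

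Core and cap were then set side by side as groups. In RNA at 6 h, 6 of 14 core genes rose and 2 fell, with a median log2 change of 0.07, and 3 of 20 cap genes rose and 4 fell, with a median of -0.02. Of all tested genes 26.1% rose and 54.9% fell. The difference of the core and cap medians, core minus cap, was -0.08, -0.08, 0.02 and 0.09 at 1, 2, 4 and 6 h in RNA. These values moved with single libraries. Without 0 h A the RNA difference was 0.02, 0.05, 0.13 and 0.24 over the same times, without 4 h B it was 0.13 at 4 h, and without 0 h B it was 0.04 at 6 h. Taking means over genes in place of medians gave 0.23 at 6 h. Leaving Psmd5, Psmd9 and Psmd10 out of the cap gave 0.08 at 6 h. The log2 ratio of the core median to the cap median within a library was 1.35 and 1.23 at 6 h against 1.28 and 1.04 at 0 h. The times overlapped, but the ratio was higher in replicate A than in B at every time. Within each letter it was higher at 6 h than at 0 h, though the letters were not taken as pairs and this was not tested.

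In RPFs, 2 of 14 core genes rose and 1 fell at 6 h, and 0 of 20 cap genes rose and 2 fell, where 12.8% of all tested genes rose and 36% fell. The core minus cap difference in RPFs was -0.37, -0.06, 0.15 and 0.34 at 1, 2, 4 and 6 h. The value at 1 h rested on replicate B, and without that library the difference was -0.04. In that library Psmb3, a noncatalytic ring subunit, had 16.3 RPF RPKM against 113 in replicate A, and Psmb1 had 99.8 against 202. The difference at 2 h was 0.15 without 2 h A, that at 4 h was -0.01 without 4 h A and 0.04 without 0 h A, and that at 6 h was 0.20 without 0 h A and 0.44 without 0 h B. The log2 ratio of the medians in RPFs was 1.21 and 1.023 at 6 h against 1.09 and 1.04 at 0 h, with overlap. In TE the core minus cap difference was -0.33, -0.05, -0.05 and 0.08 at 1, 2, 4 and 6 h. The TE difference at 1 h was -0.05 without 1 h B, -0.10 without 0 h B and -0.50 without 1 h A. Those at the other times took either sign: -0.24 without 0 h A and 0.15 without 2 h A at 2 h, -0.19 without 0 h A and 0.0037 without 4 h A at 4 h, and -0.10 without 0 h A and 0.25 without 0 h B at 6 h.

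With Psma6 included, the mRNA levels of the 14 core genes lay farther apart at 6 h than at 0 h, given as a description with no test. The widening rests in large part on this 1 gene, which had 117 and 113 RPKM at 0 h and 408 and 427 RPKM at 6 h. In a particle without inducible subunits every core subunit occurs in the same number of copies, while Psmb5, Psmb6 and Psmb7 can be replaced by their inducible counterparts. In RNA the SD of log2 RPKM over the 14 genes was 0.72 and 0.82 at 6 h, against 0.50 and 0.58 at 0 h, and it lay between 0.57 and 0.70 at 1, 2 and 4 h. The highest core mRNA exceeded the lowest by 5.95 and 8.75 times at 6 h (Psma6 over Psmb3), against 3.12 and 3.93 times at 0 h (Psmb1 over Psma5). For the 6 ATPases the SD was 0.33 and 0.31 at 6 h, against 0.35 and 0.39 at 0 h, and for the cap genes other than the 3 chaperones it was 0.55 and 0.53 at 6 h, against 0.64 and 0.69 at 0 h. In RPFs the spread of the core genes was 0.96 and 0.91 at 6 h against 0.92 and 0.81 at 0 h, and 1 h B was the widest at 1.15.

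Changes in RPFs ran largely parallel to those in RNA. Over the 39 members tested in both assays at 6 h, 31 had the same sign and the correlation of the log2 changes was 0.81 (Pearson, across genes, from the same cultures, given as a description). The RPF change was below the RNA change for 28 of the 39, and the median of all tested genes was lower in RPFs as well.

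TE of the members gave no call at any time. In limma, 0 of 39 members and 0% of the 4621 genes tested for TE passed in any of the comparisons with 0 h or between neighbouring time points. Since no gene passed at all, the lack of calls does not show that TE of the members stayed the same. At an unadjusted p under 0.05, 5 members were lower at 6 h (Psma6, Psmd2, Psmd7, Psmd9 and Psme3) and 0 higher, with adjusted p from 0.27 to 0.39, where 10.5% of all tested genes were lower and 1.6% higher. The unadjusted count of members lower was 3 at 1 h (4% of all genes were lower and 2.6% higher), 0 at 2 h (4.8% and 2.06%), and 3 again at 4 h (5.65% and 1.69%), with 0 members higher at these times. The median TE change of the members at 6 h was -0.22, against -0.27 for all tested genes. Without 1 h A, 2 members were lower in TE at 1 h and 2 higher at 2 h against 1 h.

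The members differed from each other in the level of TE. Such a comparison between genes also depends on the lengths used in both assays, and that behind the RNA-seq values was not resolved. Psmd7 had the highest median TE, 2.93, with a range of 2.23 to 4.28 over the 10 cultures, and its TE was 2.76 and 2.23 at 6 h against 4.28 and 4.21 at 0 h. Psme3 followed with a median of 2.72 and a range of 1.42 to 5.18. At the other end, TE of the large activator Psme4 lay below 1 in all 10 cultures, from 0.151 to 0.754, and that of Psmb5 lay below 1 in 8 of 10, from 0.576 to 1.16. Among neighbouring ranks these ranges overlap, while those of Psmd7 and Psme4 do not. In each culture TE of Psmb2, a noncatalytic subunit of the same ring, was above that of Psmb5, with a lowest value of 1.91.

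Other genes of the pathway were taken from lists chosen with earlier results of these data known. Of the 9 accessory and assembly factors in the table, none rose and 5 fell in RNA at 6 h, where 26.1% of all tested genes rose and 54.9% fell. The 3 with the smallest p were Uchl5 (-1.52) and Usp14 (-0.97), deubiquitinases that dock on the cap, and Ube3c (-0.80), a cap-bound ubiquitin ligase. Uchl5 had 9.69 and 9.95 RNA RPKM at 6 h against 29.7 and 30.3 at 0 h. Usp14 had 22.6 and 22.6 RNA RPKM at 6 h against 43.8 and 47.03 at 0 h. In RPFs Uchl5 (-1.44) and Usp14 (-1.13) fell as well, as the 2 of 9 that passed, where 36% of all tested genes fell. The median change of this list in RNA was -0.39, close to that of all tested genes.

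Of 6 genes tested in the Nfe2l1 list, 3 rose and 1 fell in RNA at 6 h, where 26.1% of all tested genes rose and 54.9% fell. Nfe2l1 had 75.4 and 70.3 RNA RPKM at 6 h against 43.7 and 40.04 at 0 h (0.79 ± 0.11, adjusted p = 4.9e-06), with a change in RPFs of 0.08 ± 0.22 that did not pass. Of the 3 Maf family genes in this list, Mafk (1.44) and Maf (1.23) rose in RNA. Mafg fell (-0.58), with 13.5 and 14.1 RNA RPKM at 6 h against 22.1 and 20.01 at 0 h. None of the 40 members and none of the 5 inducible genes was among the 280 genes of the deposited CLIP-seq table of Zfp36, an RNA-binding protein that promotes the decay of mRNAs with AU-rich elements. That table comes from BMDMs of Zfp36-V5 knock-in mice at 4 h of LPS only, and not from the cultures of the time course. Its 280 genes are few beside the 6397 genes of the time course, and the share of those that it holds was not counted. The absence of the members is thus a description only.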

How the data were processed

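RNA-seq and Ribo-seq values of 6397 genes in 10 libraries each were deposited by the authors as RPKM. According to the methods, the authors trimmed reads by base quality, used Bowtie to discard rRNA, tRNA and mitochondrial reads, mapped what remained on mm10 with TopHat, counted reads per RefSeq gene with HTSeq and kept genes above 10 RPKM. The table also holds lower values, down to 0.0866 RPKM. How reads shared by pseudogene copies or overlapping genes were assigned was not resolved here, so the values of such genes are uncertain. Deposited columns of the authors' own comparisons (fold changes and p-values of differential genes, and p-values of CLIP peaks) were not used.

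Genes whose values in the 10 libraries averaged 10 RPKM or more were tested on log2(RPKM + 1) with limma (version 3.58.1, R 4.3.3; 5 residual degrees of freedom, prior variance following the mean level) across all genes, each time against 0 h, and p-values were adjusted by Benjamini-Hochberg with a threshold of 0.05. Fold changes on this scale understate those of low genes. TE was tested the same way on the difference of the log2 values, also between neighbouring time points. Ribo-seq depth, the read total behind the RPKM scale, was taken from the steps of low RPKM values of genes with 1 mRNA and their coding-sequence lengths. Of these values 88.2% to 94.3% came out whole within 0.06 reads, with 1840000 reads in the median library. Level summaries and figures were made with numpy 2.4.6, matplotlib 3.10.9 and pandas 2.3.3 under Python 3.11.15. Members named with their values are those that passed in RNA or RPFs at 6 h. Other members given with their own values (such as Psma7, Psmb3, Psmb5, Psmb7, Psmc1, Psmd4, Psmd14, Psmf1 and Psmg1), and Pomp and Mafg, were chosen after their values were seen, and the rest are given as ranges and counts. The members and all lists were chosen with earlier results of these data known. The values of 1 list of pathway genes are not reported here. Alternatives were a pseudocount of 0.1 or 5 RPKM, other filters, median centring, a replicate block, no trend, library weights, each library left out, and means or a reduced cap in the core and cap comparison. The setting without both 1 h replicate B and 6 h replicate A was chosen after seeing the data.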

Additional observations from a re-analysis of the deposited data

How the results depend on the processing

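Replicates A and B of different time points deviated together in RNA in 9 of 10 pairs of times (correlations of 0.09 to 0.54) but not in RPFs (-0.02 to 0.02), and the letters were not taken as pairs. With a replicate block, 8 members were lower in RNA at 1 h (4 without it), 12 at 2 h (7 without it), and 0 in RPFs at 2 h (1 without it). After median centring, 2 were lower in RNA at 1 h, 11 higher at 4 h and 18 higher at 6 h. In RPFs centring left 0 lower at 2 h, 0 lower at 4 h, and 7 higher and 2 lower at 6 h. With at least 10 RPKM in every library, 1 member was lower in RNA at 1 h and 2 in RPFs at 4 h. The RPF count lower at 4 h was also 2 with 5 RPKM added, 2 without a trend and 7 with library weights, and the count lower at 2 h was 0 without a trend. Taking means over members, core minus cap in RNA was 0.13 at 4 h and 0.23 at 6 h. Leaving out each library in turn, or 1 h replicate B and 6 h replicate A together, gave 1 to 6 members lower in RNA at 1 h, 4 to 8 at 2 h and 5 to 11 at 4 h. In RPFs it gave 0 to 7 lower at 1 h, 0 to 2 lower at 2 h, 1 to 2 higher and 0 to 4 lower at 4 h, and 2 to 4 higher and 1 to 8 lower at 6 h. In TE it gave 0 to 2 lower at 1 h and 0 to 2 higher at 2 h against 1 h. Core minus cap then ranged over -0.10 to 0.019 at 1 h, -0.083 to 0.046 at 2 h, 0.00098 to 0.13 at 4 h and 0.036 to 0.24 at 6 h in RNA, over -0.53 to -0.039 at 1 h, -0.12 to 0.15 at 2 h, -0.0087 to 0.26 at 4 h and 0.20 to 0.44 at 6 h in RPFs, and over -0.50 to -0.052 at 1 h, -0.24 to 0.15 at 2 h, -0.19 to 0.0037 at 4 h and -0.10 to 0.25 at 6 h in TE. The cause of these shifts was not tested. No member called at 6 h turned its sign. Shallow Ribo-seq (550000 reads in 6 h replicate A) limits low members: Psmd9 rested on 5 reads there and Psmg1 on 2.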
